A study of Drosophila melanogaster with 8 samples.

Results

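The genes described here are 36 genes of the Drosophila melanogaster germ line, 24 of the piRNA pathway and 12 of germ cell fate and oogenesis, out of 14701 gene IDs in the table. They were chosen by gene symbol, and all 36 were found. RNA was sequenced from 2 laboratory strains, Dahomey, a wild-type stock kept as an outbred population, and Oregon R, a long-kept wild-type stock. Each strain had 4 libraries, and each library pooled the heads and thoraxes of 60 mated females aged 10 days, raised at 25 °C; abdomens, which hold the ovaries, are no part of the labelled tissue. The data were the authors' finished DESeq2 comparison, in which a row holds 1 mean normalized count over all 8 libraries, 1 log2 fold change with its error (the standard error, SE), and an adjusted p. The values of single libraries and the levels within a strain were not analysed here, so every ± below is an SE from that table. Library depth is unknown beyond the submitters' figure of 90 M reads per sample. Positive fold changes were taken to mean higher in Dahomey because that strain is named first in the comparison; the column headers do not state it, and were it otherwise all directions would turn together.

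PIWI-interacting RNAs (piRNAs) are small RNAs that guide PIWI proteins to transposon transcripts and transposon loci, and so keep transposons silent in the gonad. In germ cells their precursors are transcribed from piRNA clusters, cut and loaded at mitochondria and in the nuage, a perinuclear granule, and amplified by the cleavage of transposon RNA; ovarian somatic cells run a simpler form of the pathway with Piwi alone. Most of these genes are known for expression in the ovary and testis, as are those that position mRNAs in the oocyte and set the body axes. Some act elsewhere too, such as bru1 in flight muscle.

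Transcripts of all 36 genes were counted in these head and thorax libraries. The highest level per exon length was that of tud, which encodes the founding Tudor-domain protein of the germ plasm, with a mean normalized count of 46424, or 5258 per kb of exon. Next came gus, a gene for a ubiquitin ligase adaptor that binds Vasa, with 3913 per kb, and osk, the organizer of the germ plasm, with 3887 per kb. The signalling gene grk had 2741 per kb, papi 2309 per kb and yl, the gene of the yolk receptor of the oocyte, 1657 per kb. The order of neighbours in this list has no test, since no spread of a level is given. Each level is a mean over all 8 libraries, so a level carried by few libraries cannot be told from a level shared by all. This matters most for rows without a p-value, such as those of osk and yl, which are described below. At the other end, bgcn, which acts with bam in the daughters of germ-line stem cells, had 13.1 per kb from a mean count of 54.5. The Yb gene of ovarian somatic cells, fs(1)Yb, had 36.5 per kb and its relative BoYb 61.6 per kb. Across all genes with a fold change the median was 685 per kb, and 10 of the 36 members lay above it.

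**Figure D1:**
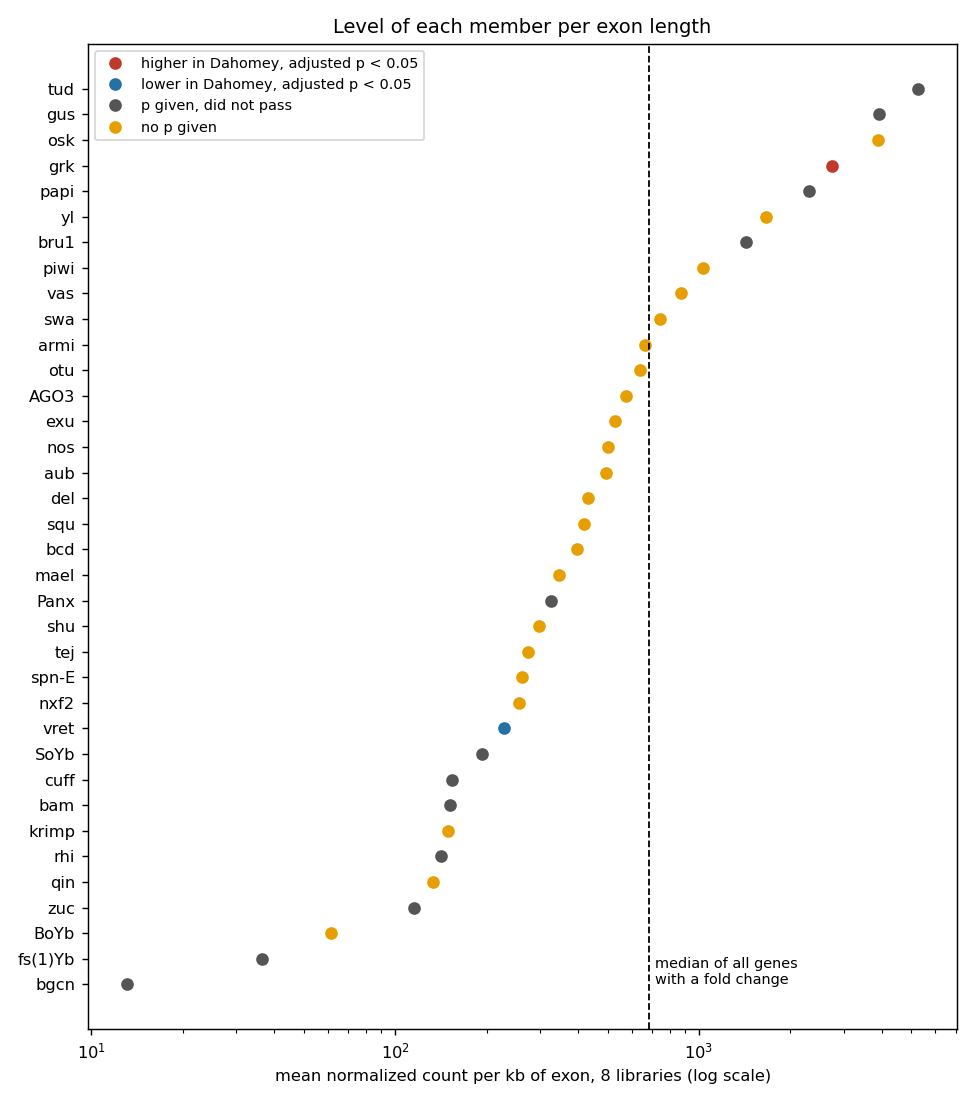
Level of each of the 36 genes as the mean normalized count over the 8 libraries per kb of exon (log axis), highest at the top; colour gives the outcome of the strain comparison. The points run from 5258 per kb for tud to 13.1 per kb for bgcn, and 10 lie right of the dashed line, the median of all genes with a fold change (685 per kb).

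Markers of heads and thoraxes were abundant. In the authors' deposited table the photoreceptor genes ninaE, of a rhodopsin, and Arr2, of an arrestin, had means of 1452800 and 427515, and the muscle genes Mhc and up had 252776 and 141622. Markers of the female germ line other than the members were also counted: the maternal thioredoxin gene dhd had a mean of 7639 and the poly(A) polymerase gene wisp 3522 in the authors' deposited table. The eggshell genes Cp38 and Cp15 of ovarian follicle cells had 6166 and 3704 there. The rows of dhd, wisp, Cp38 and Cp15 had no p-value, and whether few libraries carried their means was not tested. The summed mean was 20629 over 10 female germ-line markers and 29006 over 24 follicle cell markers, and no marker was at 0. Of 19 male germ-line markers, whose median mean count was 4.92 in the authors' deposited table, bol, also known from neurons, had 9508 and janB had 246. Of 9 accessory gland markers, whose median mean count was 3.08, the highest, Acp95EF and Acp63F, had means of 129 and 50.04 there. The spermatheca genes Send1 and Send2 had 0.198 and 1.15. In pooled tissue, fewer cells of a type and less RNA per cell cannot be told apart.

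Among the 36 genes, grk was higher in Dahomey, vret was lower, 12 did not pass their test, and 22 had a fold change but no p-value. Over the whole table, 29.4% of rows with a p-value passed at the authors' DESeq2 adjusted p under 0.05, 14.7% in each direction, against 2 of the 14 members with a p-value. Before adjustment, 4 of these 14 had a p under 0.05 in the authors' DESeq2 test, against 4844 of all 13185 gene IDs with a p-value. The median log2 fold change was -0.13 over all 36 genes, against -0.0046 over all gene IDs, with 13 members above 0 and 23 below. Since the members with and without a p-value differed in the width of their estimates, the count of those that passed describes the 14 alone.

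**Figure D2:**
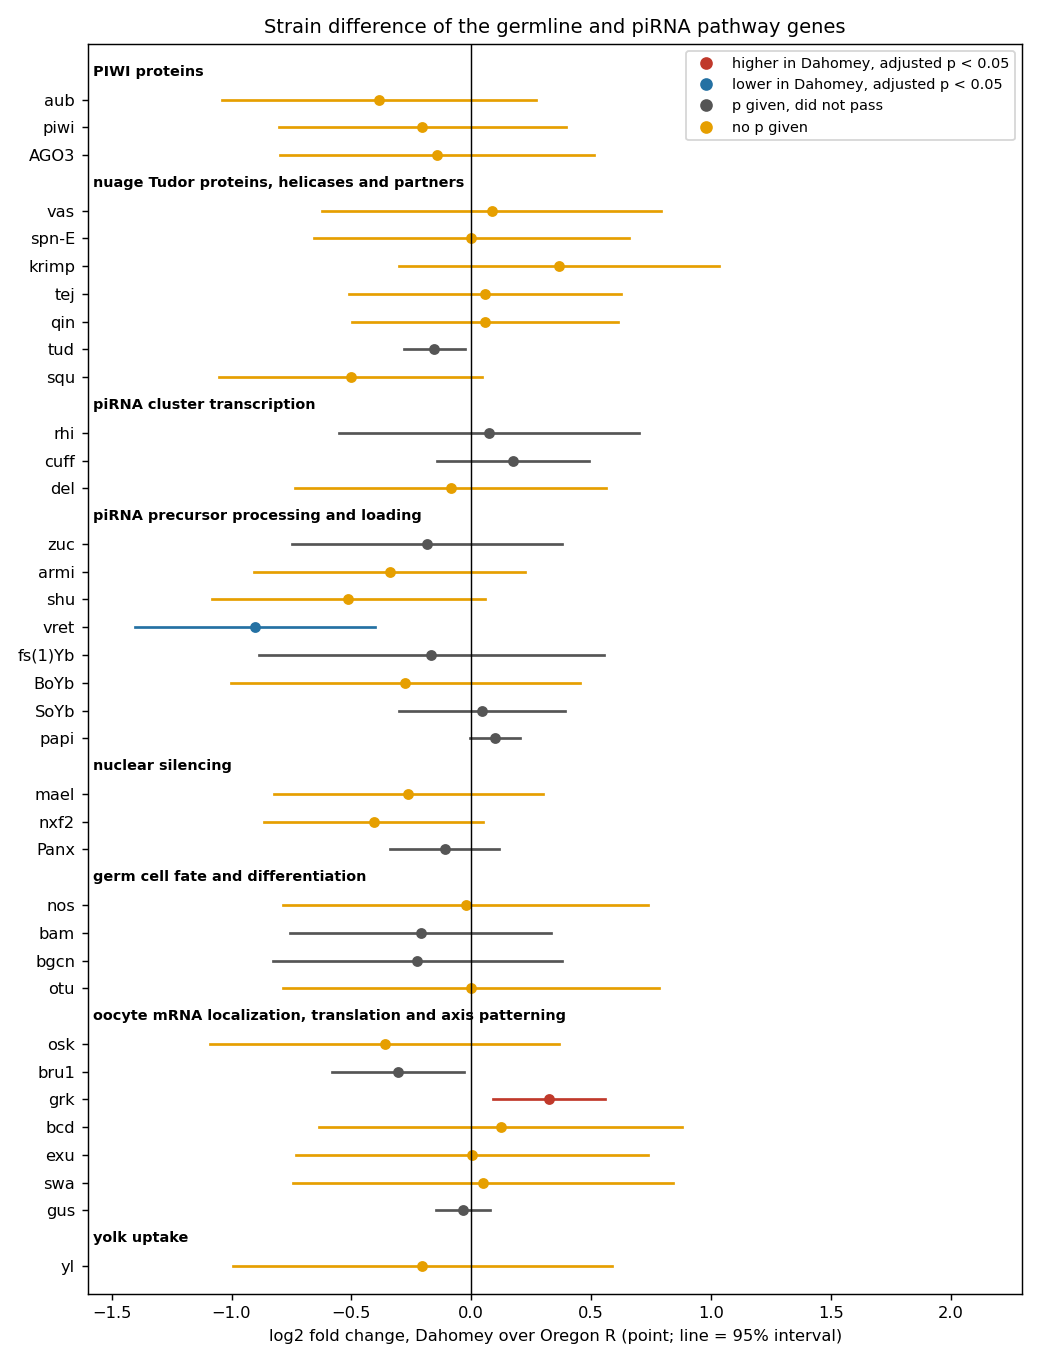
Log2 fold change of Dahomey over Oregon R for each of the 36 genes by role (points) with its 95% interval (lines), from the authors' values. The interval of vret lies below 0 and that of grk above 0, and those of tud and bru1 also end below 0 although their adjusted p did not pass; the interval of every gene without a p-value spans 0.

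The 3 PIWI proteins gave no call, because none had a p-value. The genes aub and AGO3 encode the cytoplasmic pair that slice transposon RNA in turn, and piwi encodes the nuclear protein that directs silencing of transcription. For aub the authors' deposited table listed a mean of 1494 and a log2 fold change of -0.38 ± 0.33 (SE), a 95% interval of -1.04 to 0.27. The gene piwi, also on arm 2L, had a mean of 3169 and a fold change of -0.20 ± 0.31, and AGO3 on arm 3L had a mean of 1836 and -0.14 ± 0.33, in the authors' deposited table. All 3 estimates were below 0 and smaller than 2 SE. The SE of each was between 3.34 and 3.82 times the median SE of rows of like mean.

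Of the 7 nuage genes, 6 had no p-value and tud did not pass. The Vasa helicase gene vas, long used as a marker of germ cells, had a mean of 1992 and a log2 fold change of 0.09 ± 0.36 in the authors' deposited table. The gene of a second helicase, spn-E, had 0.00 ± 0.33 there, and the Tudor genes tej and qin both had 0.06, with SE of 0.29 and 0.28. The gene krimp, whose product brings Aub and AGO3 together, had 0.37 ± 0.34 in the authors' deposited table, the highest fold change of the 36, and squ, whose product binds Aub, had -0.50 ± 0.28. The ends of these intervals ran from 0.483-fold for squ to 2.05-fold for krimp. Whether these estimates are shrunken toward 0 was not tested, so the ends are no firm limits. In contrast, tud was estimated tightly, at -0.15 ± 0.066 (adjusted p = 0.0631 in the authors' DESeq2 test), an interval of -0.28 to -0.02. A second row for qin, with a mean of 110 against 810, had 0.07 ± 0.33 and an adjusted p of 0.911 in the authors' deposited DESeq2 table.

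Of the genes of piRNA cluster transcription, rhi and cuff did not pass and del had no p-value. Rhino, a relative of heterochromatin protein that marks the clusters, is encoded by rhi, and its partners Cutoff and Deadlock by cuff and del. The authors' deposited table listed rhi at 0.07 ± 0.32 from a mean of 222 and cuff at 0.17 ± 0.16 from a mean of 199. The gene del, with a mean of 1422, had -0.09 ± 0.33 and no p-value there. Neither rhi nor cuff had a p under 0.05 before adjustment.

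Of the 8 genes that process and load piRNAs, vret was lower in Dahomey, 4 did not pass and 3 had no p-value. The Tudor protein Vreteno is needed to make primary piRNAs in germ cells and in somatic cells of the ovary. Its gene on arm 3R had a mean of 530 and a log2 fold change of -0.90 ± 0.26, or 1.87-fold lower in Dahomey, with an interval of -1.40 to -0.40 (adjusted p = 0.00233 in the authors' DESeq2 test). This was the lowest fold change of the 36 genes. Its SE was 1.88 times that of rows of like mean, the highest such ratio among the 14 members with a p-value.

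The other genes of this group ranged from -0.51 to 0.10. The co-chaperone gene shu, which acts in loading, had -0.51 ± 0.29, and the helicase gene armi had -0.34 ± 0.29, both without a p-value in the authors' deposited table. BoYb, one of the Tudor-domain helicase genes related to fs(1)Yb, had -0.27 ± 0.37 and no p-value there. Among those with a p-value in the authors' deposited table, the gene of the mitochondrial nuclease Zucchini, zuc, had -0.18 ± 0.29, fs(1)Yb had -0.17 ± 0.37 and SoYb had 0.04 ± 0.18. The narrowest estimate of all 36 was that of papi, the gene of a Tudor protein of the mitochondrial surface, with a mean of 6215 and 0.10 ± 0.054 (adjusted p = 0.170 in the authors' DESeq2 test). Its interval ran from -0.01 to 0.20.

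The 3 genes of nuclear silencing, which act with Piwi at transposon loci, all had fold changes below 0 and did not pass or had no p-value. Panx and nxf2 encode partners in a complex that represses the transcripts Piwi finds, and mael a further silencing factor. In the authors' deposited table, Panx had -0.11 ± 0.12 (adjusted p = 0.567, DESeq2), against -0.41 ± 0.23 for nxf2 and -0.26 ± 0.29 for mael, which had no p-value. Before adjustment, the p of Panx was not under 0.05 either.

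The 4 genes of germ cell fate gave no call. The translational repressor gene nos, which keeps germ-line stem cells and patterns the posterior of the embryo, had a mean of 1175 and a log2 fold change of -0.02 ± 0.39 in the authors' deposited table. The gene otu, needed for germ cells to survive and mature, had a mean of 2182 and 0.00 ± 0.40, and like nos it had no p-value. The differentiation gene bam had -0.21 ± 0.28 from a mean of 295 and its partner bgcn had -0.22 ± 0.31 from a mean of 54.5, with adjusted p of 0.667 and 0.681 in the authors' DESeq2 test; neither had a p under 0.05 before adjustment.

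Of the 7 genes of mRNA localization and axis patterning, grk was higher in Dahomey, bru1 and gus did not pass, and 4 had no p-value. The product of grk is the ligand by which the oocyte signals to follicle cells to set both body axes. The gene, on arm 2L, had a mean of 4709 and a log2 fold change of 0.32 ± 0.12, or 1.25-fold higher in Dahomey, with an interval of 0.09 to 0.56 (adjusted p = 0.0249 in the authors' DESeq2 test). The RNA-binding protein gene bru1, which represses osk translation in the ovary and directs splicing in flight muscle, had a mean of 11126 and -0.31 ± 0.14 (adjusted p = 0.0894, DESeq2). The estimate for gus was narrow, at -0.03 ± 0.058, with an interval of -0.15 to 0.08 in log2 units.

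The 4 genes of this group without a p-value had wide estimates. The authors' deposited table gave osk a mean of 11153 and a log2 fold change of -0.36 ± 0.37. The anterior determinant gene bcd, with a mean of 1004, had 0.12 ± 0.39 there. For exu and swa, whose products localize bcd mRNA, the authors' deposited table had 0.00 ± 0.37 and 0.05 ± 0.40. The yolk receptor gene yl, with a mean of 10524, had -0.20 ± 0.40 in the authors' deposited table, an SE 5.24 times that of rows of like mean and the largest such ratio of the 36 genes.

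The missing p-values went with wide estimates. In DESeq2, by default, a row that has a fold change but no p-value is one in which at least 1 library's count was marked as an outlier against its group; whether the authors kept that default is not stated in any source read here. Such rows made up 6.4% of the table's rows with a fold change, and 7.87% of those with a mean of at least 100, against 22 of the 36 members, or 61.1%. Relative to rows of like mean, the SE of these 22 genes was 1.94 to 5.24 times as large, with a median of 3.54. For the 14 members with a p-value the ratio ran from 0.690 to 1.88, so the groups did not overlap. The gap was small, from 1.88 for vret to 1.94 for nxf2. The split was not particular to the members. Over the table, 623 of 916 rows without a p-value had a ratio of at least 2, against 40 of 13395 with one. The highest SE of the table, 0.42, also limited the ratio at low means, as for bgcn, where the median SE of like rows was 0.286. None of the 22 fold changes exceeded 2 SE, the highest ratio being the 1.79 of squ, while 26.5% of all 916 rows without a p-value did. Low counts did not mark the 22 genes: their median mean count was 1323, against 590 for the 14.

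**Figure D3:**
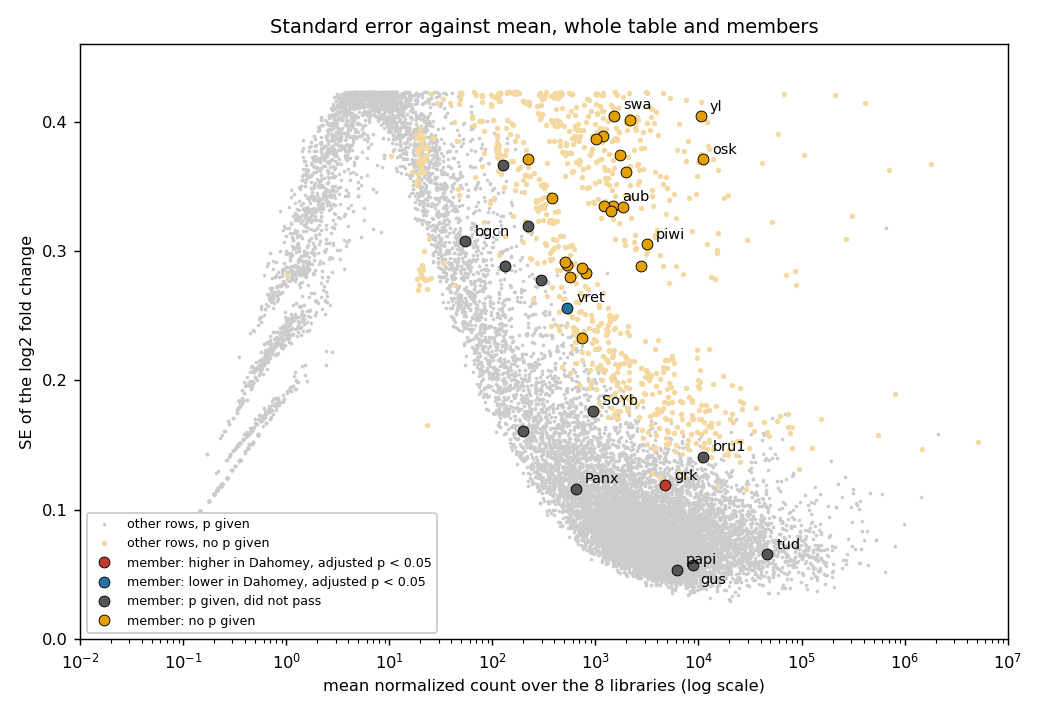
SE of the log2 fold change against the mean normalized count (log axis) for all rows of the table (small dots) and for the 36 genes (large dots). Members without a p-value (orange) lie above the main cloud at means from 219 to 11153, while tud, gus, papi and Panx lie within it.

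Wide estimates were found at high counts too. Of the 19 members with a mean of at least 1000, 14 had an SE at least 3 times that of rows of like mean, and all 14 lacked a p-value; the same width was reached by 204 of 7817 gene IDs at such means, or 2.61%. The 5 others were tud, gus, bru1, grk and papi. SE in the authors' deposited table never exceeded 0.42. At least 85% of that ceiling was reached by 9 of the 22 genes without a p-value and 1 of the 14 with one, fs(1)Yb. Fold changes with an SE near the ceiling may be understated, since estimates shrunken toward 0 have this shape.

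Gene lists of other ovarian cells had missing p-values and wide estimates too. Of 10 further female germ-line markers, 8 had no p-value, with a median SE ratio of 3.76 over the list. The authors' deposited table held dhd at 0.19 ± 0.42 and wisp at 0.18 ± 0.41, from the means given above. Of 24 follicle cell markers 19 had no p-value, with a median ratio of 2.39. Their log2 fold changes had a median of -0.15, with 8 above 0 and 16 below, and ran from 0.54 ± 0.34 for Vm32E to -2.28 ± 0.42 for Cp18, both without a p-value. Of the 5 with a p-value 2 passed, yellow-g at -1.21 ± 0.25 and slbo, a border cell factor, at -0.32 ± 0.11, in the authors' deposited table. The eggshell gene yellow-g had an adjusted p of 1.12e-05 and slbo 0.0143 by DESeq2.

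The other marker lists mostly had p-values. None was missing for 19 male germ-line, 9 accessory gland, 2 spermatheca, 10 eye, 4 neuron and 5 blood cell markers. In contrast, 1 of 6 flight muscle markers (Act88F) and 3 of 7 genes listed as fat body markers had no p-value. These 3 were Lsp2 and the yolk protein genes Yp2 and Yp3. Whether the RNA of the listed genes came from the named tissue alone was not tested. Counts of the male germ-line, accessory gland and spermatheca lists were mostly low, with median means of 4.92, 3.08 and 0.672. Of 2364 rows with a fold change and a mean of up to 10, only 1 lacked a p-value. No contrast with the ovarian lists can therefore be drawn from these low-count lists. All means of the eye, neuron and blood cell lists were above 1000. Among rows with a mean over 1000 and up to 10000, 5.91% lacked a p-value, and above 10000 it was 5.77%. No missing p-value in such short lists is therefore near the share of the table. The neuron genes Syt1 and nSyb had -0.37 ± 0.094 and 0.01 ± 0.073, and the blood cell genes Hml and srp -0.04 ± 0.12 and 0.34 ± 0.10, in the authors' deposited table. The part of ovarian RNA, or of any single library, in the width of the members' estimates was not tested.

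**Figure D4:**
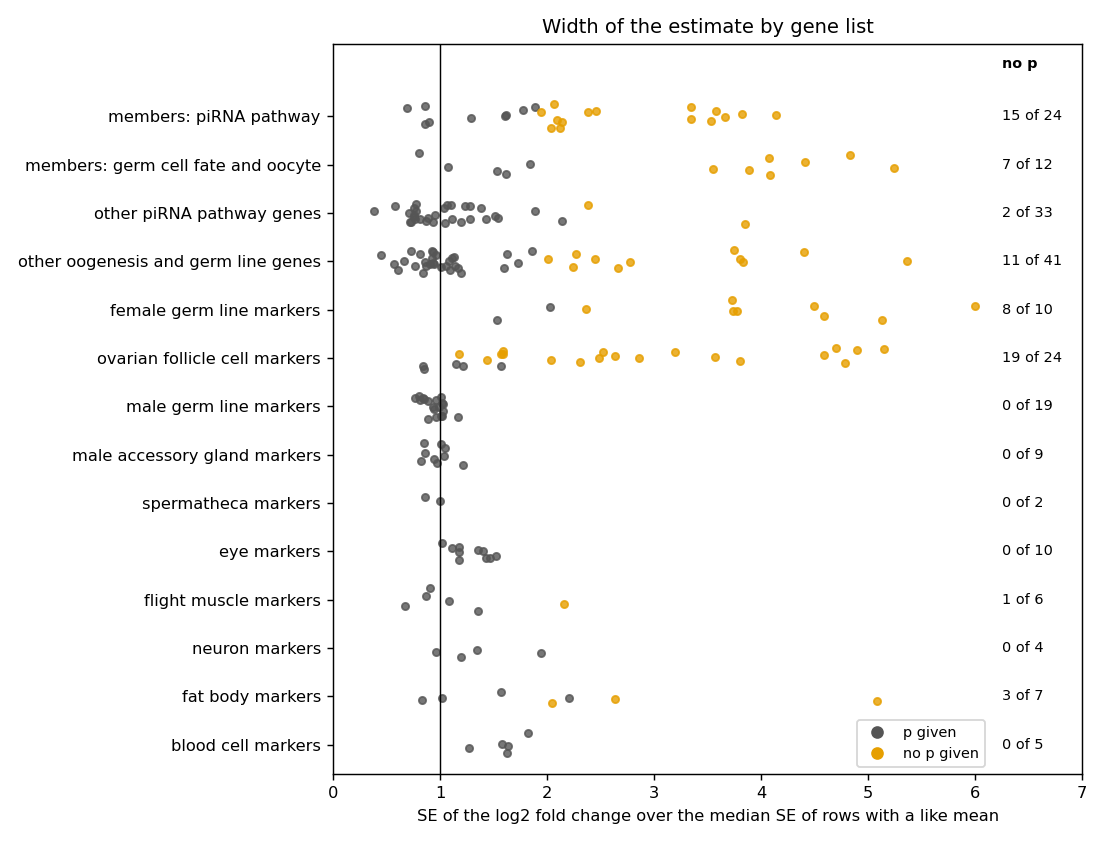
SE of each gene's log2 fold change divided by the median SE of rows of like mean, by list, with genes that have a p-value in grey and genes without in orange; vertical scatter within a list carries no meaning. The number without a p-value is 15 of 24 and 7 of 12 for the members. It is 8 of 10 for female germ-line and 19 of 24 for follicle cell markers. For male germ-line markers it is 0 of 19, but their median mean count was 4.92, where almost no row lacked a p-value.

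Estimates for further genes of the piRNA pathway, many of which act in all cells, were mostly of typical width. Of 33 such genes, 2 had no p-value, 25 did not pass, 5 rose in Dahomey and 1 fell, with a median log2 fold change of 0.03 and a median SE ratio of 1.03. The lower gene was that of heterochromatin protein HP1a, at -0.29 ± 0.058 (adjusted p = 5.57e-06 in the authors' DESeq2 test). Higher were wde, a cofactor of the histone methyltransferase Eggless, at 0.24 ± 0.067, and tho2, of the mRNA export complex that binds cluster transcripts, at 0.17 ± 0.054, in the authors' deposited table. Tudor-SN, a nuclease of the Tudor family, had 0.28 ± 0.091 and CoRest, a corepressor, had 0.23 ± 0.081 there. The 2 without a p-value were the chaperone genes Hsp83, at -0.37 ± 0.28, and Stip1, at -0.25 ± 0.18, in the authors' deposited table.

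Other oogenesis and germ-line genes were mixed. Of 41, 7 were higher in Dahomey, 5 were lower, 18 did not pass and 11 had no p-value. The lower ones included Rbp9, an RNA-binding protein gene used in neurons as well as in germ cells, at -0.60 ± 0.070 (adjusted p = 2.16e-16, authors' DESeq2 test). In the authors' deposited table fs(1)K10, which acts on grk mRNA, had -0.38 ± 0.10. The exon junction gene tsu and the splicing gene snf had -0.21 ± 0.064 and -0.17 ± 0.056 there. Higher were egl, of the machinery that carries mRNA to the oocyte, at 0.19 ± 0.044, and the adducin gene hts at 0.12 ± 0.034, in the authors' deposited table. The genes Hrb27C and btz, both of which act on oocyte mRNAs, had 0.25 ± 0.084 and 0.19 ± 0.070 there. The 11 without a p-value were orb, BicC, cup, me31B, tral, brat, smg, mei-P26, ovo, mtrm and twe. Among these, orb, which activates translation in the oocyte, had -0.32 ± 0.34 from a mean of 5845, and BicC, a translational repressor, had 0.21 ± 0.42 from a mean of 5248, in the authors' deposited table.

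Exons of 18 of the 36 members overlap exons of another gene in the table, by at least 1 base in the annotation of a later assembly, and the library kit, a TruSeq RNA kit, keeps no strand. Reads from such stretches cannot be told apart. Both genes that passed are among the 18. The overlap of grk with Akap200, a gene for an anchoring protein of protein kinase A on the opposite strand, covers 212 bases or 12.3% of the exon bases of grk. Akap200 had a mean of 17740 and was higher in Dahomey, at 0.38 ± 0.050 (adjusted p = 5.36e-13, authors' DESeq2 test), a fold change within 1 SE of that of grk. The overlap of vret with CG6985 covers 128 bases or 5.5% of the exon bases of vret. CG6985 had a mean of 777 and was lower in Dahomey, at -0.39 ± 0.15 (adjusted p = 0.0290, DESeq2), a value nearer to 0 than that of vret; the gap between these genes was not tested. The part of these partners in the values of grk and vret was not tested.

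Other members and partners gave mixed values. CG11854, which overlaps 11.5% of the exon bases of bam, had -1.56 ± 0.12 in the authors' deposited table, against the -0.21 ± 0.28 of bam itself. ERp60, a gene of protein folding that overlaps 2.78% of cuff, had 0.40 ± 0.044 there, against 0.17 ± 0.16 for cuff, a value of the same sign. CG14450, which shares 1 exon base with mael, had -0.23 ± 0.077 in the authors' deposited table, against the -0.26 ± 0.29 of mael. CG14451, which overlaps 11.4% of the exon bases of mael, had the opposite sign, 0.89 ± 0.37 from a mean of 21.2. The gaps between these pairs were not tested. The gene squ shares 16.3% of its exon bases with the checkpoint kinase gene grp on the same strand, and vas shares 24.6% with solo, a gene of chromosome cohesion with a mean of only 60.0. Of the 18 members with no such overlap 11 had no p-value, and the other 7 did not pass. These 18 include armi, with 99.6% of its exon bases shared with CG46463, and osk, with 78.5% shared with lncRNA:osk, both on the same strand; those partners were not analysed here.

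**Figure D5:**
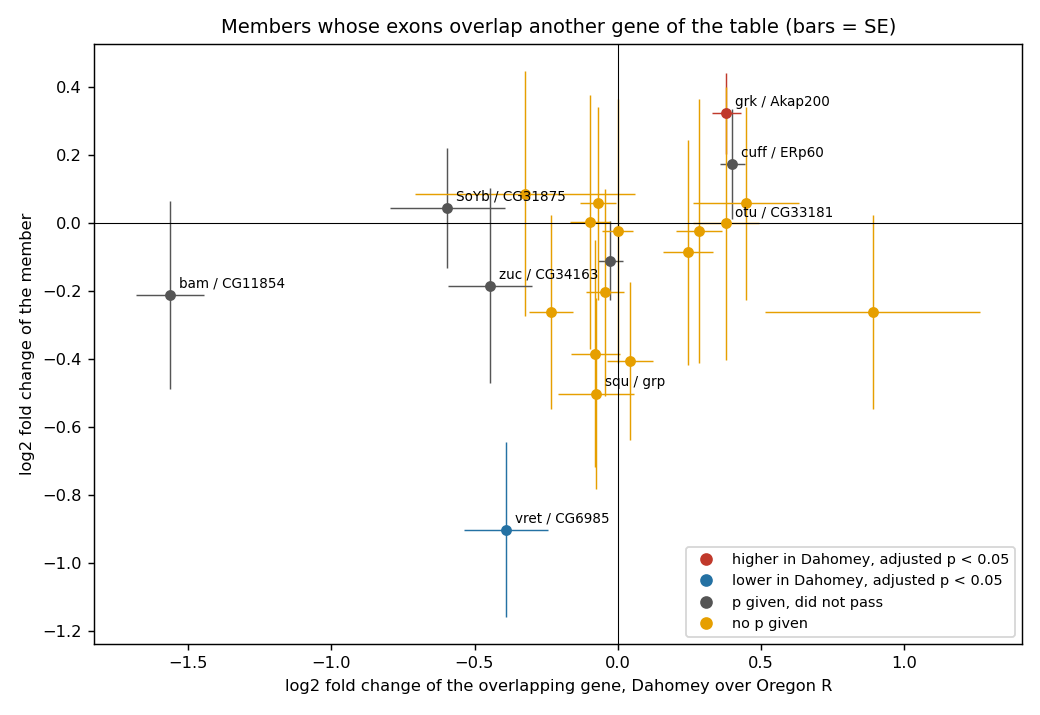
Log2 fold change of a member (vertical axis) against that of a gene whose exons overlap it (horizontal axis), Dahomey over Oregon R, with bars of 1 SE; mael, nos and qin appear with 2 partners each. The points of grk with Akap200 and of vret with CG6985 lie in the quadrants where both genes have the same sign, while bam lies at -0.21 beside the -1.56 of CG11854.

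The members were spread over the genome, with 4 on the X chromosome, 10 each on arms 2L and 2R, 5 on 3L, 7 on 3R and 0 on chromosome 4. Missing p-values occurred on all 5 arms with members, for 3 of 4 genes on the X, 5 of 10 on 2L, 4 of 10 on 2R, 5 of 5 on 3L and 5 of 7 on 3R.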

How the data were processed

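Per the labels, poly(A) RNA of 8 samples was sequenced, 4 per strain. Per the submitters' processing notes, bcl2fastq, FastQC, DESeq2 and TopHat2 2.0.7 were used on genome build BDGP5, with no role or order named. How reads were counted, and with which strand setting, is not given in the sources used. The authors deposited 1 table: per the file headers, a mean over libraries (a signal on the scale of normalized counts), a log2 fold change, its SE (log2 units), a p-value, and a p-value adjusted over the table. Of 14944 rows, 633 had a mean of 0 and 13395 had a p-value; the 916 with a fold change only stayed without one. Dividing fold change by SE gave, as a 2-sided normal p, the deposited p-value with a difference of at most 4.1e-15.

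An ID on several rows was represented by that of highest mean (1 member, qin). Symbols, arms, exon lengths and overlaps came from Ensembl release 115 (BDGP6), looked up by gene ID, so no coordinates are given; 14367 of 14701 IDs matched, and the listed genes sov, Mcm3 and Orc1 were not analysed here. The SE ratio divides each SE by the median SE of the 201 rows nearest in mean. Intervals are 95% normal intervals. No label ties a strain's libraries to separate cultures: the p-values reflect the spread between these samples, which may be technical. A count model had been planned only for files with counts, and the authors' test was used. Members and lists were chosen with earlier results of these data known. All members are named; of the other pathway lists, up to 4 higher and 4 lower genes by smallest p; of marker lists, those of highest mean. Genes named beyond this rule were chosen after their values were seen. Recomputed adjustment and SE ratios were tested on simulated data. Python 3.11.15, numpy 2.4.6, pandas 2.3.3, scipy 1.17.1 and matplotlib 3.10.9 were used.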

Additional observations from a re-analysis of the deposited data

How the results depend on the processing

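Of the members, 2 passed at the authors' adjusted p under 0.05. At a threshold of 0.01, 1 passed (vret), with Bonferroni adjustment of the deposited DESeq2 p-values 0 (4 before any adjustment), at 1.5-fold or more 1 (vret), at 2-fold or more 0, and 0 without members that overlap another gene in the table; without grk 1 was left, and without vret 1 (the last pair were chosen after seeing the data). The recomputed Benjamini-Hochberg adjustments, centring on the median fold change, minimum means of 10 and 100 and the other row of qin left the count at 2. For the 14 members with a p-value under 5 alternatives for the adjustment, threshold and centring, 67 of 70 values kept their side of the threshold. The 3 that moved were grk at 0.01 and both grk and vret with Bonferroni adjustment. These stricter settings could not move the 12 members that had not passed, so the total of 67 is no measure of stability. The median log2 fold change of -0.13 lay between -0.15 and -0.11 under each alternative run. Members without a p-value numbered 22 (21 with the other row of qin), 11 of the 18 without such overlap and 14 of the 19 with a mean of at least 1000; these limits were chosen after seeing the data, and each removes members. No paired analysis was possible because the columns carry no replicate; leaving out each library was not run for the same reason. Depth per library is unknown, so the limit it sets cannot be given.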

Other observations

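Genes of the cell cycle had the same missing p-values; both lists were chosen after some of their values were seen. Of 13 listed genes of DNA replication 11 were analysed, and all 11 had no p-value, with SE ratios of 1.75 to 3.89 and fold changes of -0.20 to 0.39 on the log2 scale. The sliding clamp gene PCNA had a mean of 1509 and 0.12 ± 0.36 in the authors' deposited table, and Mcm5, of the replicative helicase, had a mean of 1440 and 0.12 ± 0.36. Among 16 genes of mitosis, p-values were missing for 12; by the authors' DESeq2 test 0 of the remaining 4 passed, and 1 (Bub1) was under 0.05 before adjustment. The mitotic cyclin genes CycB and CycA had means of 11974 and 6523 and fold changes of -0.03 ± 0.40 and 0.09 ± 0.40 in the authors' deposited table, and polo, the gene of a mitotic kinase, had -0.01 ± 0.40. CycB, CycA and polo had SE 5.13, 5.11 and 4.87 times those of rows of like mean, beside the 5.24 of yl and the 4.83 of osk.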
